A study of Mus musculus with 4 samples.

Results

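Cluster 89 of the neurons of the mouse hindbrain, which the authors' annotation names after *Necab1* and *Arhgap15*, held 109 of the 39461 nuclei kept in the study and 109 of its 12539 neurons. Its members were taken from the deposited table of nuclei as those that passed the authors' quality filter and carried this cluster, and they were compared with the 12430 other neurons. Single nuclei were profiled in 4 libraries made with the 10x Genomics 3′ kit from a piece of hindbrain holding the area postrema and the nucleus tractus solitarii, after sorting on the DNA dye DRAQ5. Control libraries, labelled WT, and libraries of AgRP-Gq;POMC-Gi mice (AgRP-IRES-Cre+/-;hM3DGqfl/- ;POMC-Dre+/-;hM4DGifl/-) numbered 2 each. In the latter, Cre under *Agrp* control turns on the activating receptor hM3DGq and Dre under *Pomc* control turns on the inhibitory receptor hM4DGi. By the study's methods, its control mice carry both receptor alleles (hM3DGqfl/- and hM4DGifl/-) but no recombinase (AgRP-IRES-Cre-/- and POMC-Dre-/-), so the label WT does not mean animals free of transgenes. Mice of both groups, 12 to 20 weeks old and of both sexes, had received clozapine-N-oxide (CNO, the ligand of these receptors) at 3 mg per kg by intraperitoneal injection 1 h before the tissue was taken, so the groups differ in the recombinases and not in the drug. The design text gives 2 mice per group and says that samples of a condition were pooled. It does not say which mice entered which library, so the p-values below measure the spread between these libraries, which may in part be technical.

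Control replicates 1 and 2 contributed 20 and 31 nuclei of the cluster, and the AgRP-Gq;POMC-Gi replicates contributed 40 and 18. These nuclei held 165945, 231087, 259513 and 115183 unique molecular identifiers (UMIs, each a counted RNA molecule) in the same order, which is the order of every series of 4 library values below. The median nucleus of the cluster had 6370 UMIs and 2904 genes, against 8727 UMIs and 3570 genes in the other neurons. *Xist*, the RNA of the inactive X chromosome, was at 795, 627, 921 and 0 counts per 1e6 UMIs (CPM) in cluster 89, so AgRP-Gq;POMC-Gi replicate 2 stood apart, as it did in the other neurons (505, 316, 539 and 16.3 CPM). The sex of the mice in each library is not given, so libraries may differ in sex, and no test below adjusts for it. *Ttr*, a transcript of choroid plexus, was at 0, 1350, 7.71 and 816 CPM in the cluster and at 1.498, 1000.2, 7.53 and 580 CPM in the other neurons, so it was high in both libraries numbered 2. No barcode sequence occurred in cluster 89 of more than 1 library.

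Necab1 is a neuronal protein that binds calcium through EF-hand domains, a fold shared by calbindin, parvalbumin and calmodulin. Arhgap15 switches off the small GTPase Rac, which shapes the actin cytoskeleton. Neurons of this part of the hindbrain take in signals from the viscera and relay them to centres of feeding and autonomic control, and local cells that release GABA or glycine hold these relays in check. GABA is made by glutamate decarboxylase, of which *Gad1* and *Gad2* encode the forms of neurons, and glycinergic cells are known by the transporter *Slc6a5*.

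Both label genes stood higher in cluster 89 than in any other of the 134 neuronal clusters, counted as those to which the deposited table assigns neurons (the study's text gives another count). *Necab1* (chromosome 4, 14952245 to 15149794, minus strand, GRCm38) was at 850, 805, 759 and 677 CPM in the 4 libraries, and at 84.1, 82.4, 90.2 and 96.0 CPM in the other neurons. Every library of the cluster was above all 4 libraries of the other neurons. The mean was 773 ± 73.6 CPM (SD, n = 4), 8.76 times that of the other neurons, and the next cluster, number 170, was at 600 CPM. *Arhgap15* (chromosome 2, 43748824 to 44395953, plus strand) was at 374, 299, 416 and 495 CPM against 27.2, 30.3, 36.3 and 41.6 CPM. Its mean of 396 ± 82.0 CPM (SD, n = 4) was 11.7 times that of the other neurons, with cluster 145 next at 298 CPM. These values are a description, because clusters were built from the same counts. A *Necab1* UMI was found in 97.2% of the 109 nuclei (95% Clopper-Pearson interval 92.2 to 99.4%) and an *Arhgap15* UMI in 79.8% (71.1 to 86.9%), against 32.3% and 16.0% of the other neurons. In oligodendrocytes, taken as cells that should lack both, the shares were 0.678% and 3.48% at a median of 2460 UMIs. When every nucleus was thinned to 2000 UMIs, the shares for *Necab1* were 67.0% in the cluster, 14.8% in the other neurons and 0.439% in oligodendrocytes, and those for *Arhgap15* were 53.2%, 6.45% and 2.66%. Intervals here cover counting error only. Both genes together were seen in 85 of the 109 nuclei and at least 1 of them in 108, and over the 109 nuclei their levels had a Pearson correlation of 0.0324, with depth and library shared by both.

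**Figure D1:**
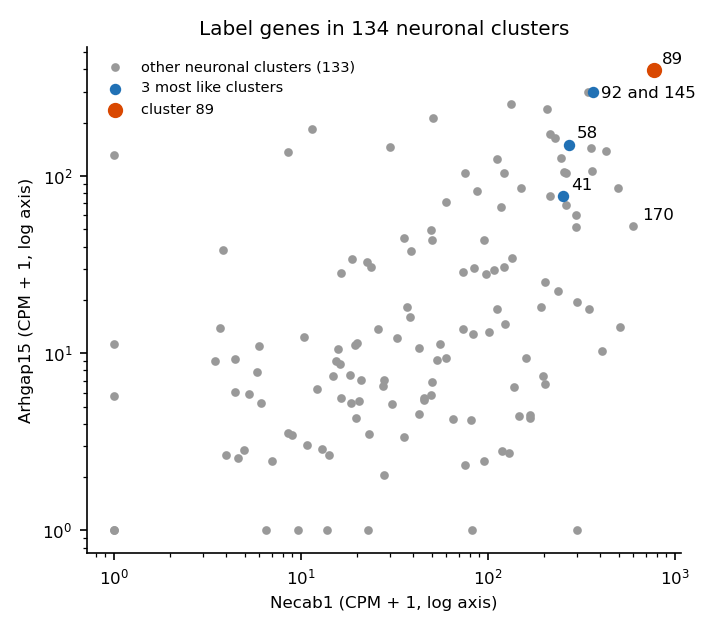
Mean level over the 4 libraries of Necab1 (horizontal axis) and Arhgap15 (vertical axis), as CPM + 1 on log axes, in each of the 134 neuronal clusters (points). Cluster 89 lies at the upper right corner at 773 and 396 CPM, and clusters 92 and 145 lie nearest to it in Arhgap15 at 298 CPM each.

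The genes whose levels followed the label genes over the 134 clusters were in part their neighbours on the chromosome. The profile most like *Necab1* was that of *Gm11844* (Pearson r = 0.927 over 134 clusters, log2 of CPM + 1), an antisense RNA on the plus strand at 15022582 to 15031987 inside the *Necab1* locus, followed by *Zcchc18* (0.694), *Shisa7* (0.664), *Sh3gl3* (0.643) and *Tspan33* (0.635). Whether reads were counted by strand is not given in the sources used here, so *Gm11844* and *Necab1* cannot be told apart with certainty. For *Arhgap15* the order was *Zeb2* (0.698), *Gtdc1* (0.541), *Rab3b* (0.509), *Tspan18* (0.509) and *Prkg1* (0.479). *Gtdc1* (44564412 to 44927657) and *Zeb2* (44983632 to 45117395) lie next to *Arhgap15* on chromosome 2, both on the opposite strand and without overlap with it. *Zeb2*, which encodes a zinc finger transcription factor, was at 572, 831, 836 and 1024 CPM in cluster 89 and at 140 ± 13.2 CPM (SD, n = 4) in the other neurons. *Gtdc1* was at 367 ± 97.7 and 182 ± 17.2 CPM.

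Beyond the label genes, a small group of transcripts stood far above their level in the other neurons as a whole. Over the 10912 genes detected in 5% or more of its nuclei, 15.1% were above the other neurons in each of the 4 libraries and 12.6% below in each. The 20 genes with the highest ratio are described here, 9 of which ranked first among the 134 clusters and 17 within the highest 3. Their choice by ratio largely fixes such ranks. Of the 4244 genes seen in 25% or more of the nuclei, 32 ranked first, and 253 of the 10912 genes ranked within the highest 3. Not all were scarce elsewhere, since *Ptprm* and *Dpyd* were seen in 58.9% and 38.7% of the other neurons.

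The lincRNA *6530403H02Rik* (chromosome 3, 120604109 to 120886733) had the highest ratio, 30.2, at 337, 415, 331 and 521 CPM against 14.0, 8.09, 10.4 and 20.7 CPM. It was seen in 51.4% of the nuclei and in 3.45% of the other neurons, and its mean of 401 CPM was second to the 496 CPM of cluster 153. *Gzmk*, which encodes granzyme K, a serine protease best known from lymphocytes, was at 72.3, 38.9, 53.9 and 69.5 CPM against 2.32 to 3.92 CPM in the other neurons. The lymphoid markers *Ptprc*, *Cd3e* and *Ms4a4b* had no UMI in cluster 89, and *Skap1*, the fourth listed, was at 54.2, 51.9, 53.9 and 26.05 CPM against 33.5 to 42.4 CPM. *Gzmk* overlaps *Esm1* on the other strand over 8440 bases, and *Esm1* itself was 19.6 times as high in the cluster as in the other neurons, so the source of these UMIs is uncertain.

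*Piezo2*, the ion channel that opens on mechanical stretch, was at 259, 117, 92.5 and 174 CPM against 9.66 to 12.3 CPM, the highest of the 134 clusters, with cluster 42 next at 142 CPM. Its UMIs came from 39 of the 109 nuclei (35.8%, 95% interval 26.8 to 45.5%), and the share in the other neurons, 4.73%, did not exceed that in oligodendrocytes, 4.86%. *Ryr1*, a calcium release channel of internal stores, was at 65.0 ± 15.4 CPM (SD, n = 4), 8.76 times the other neurons. *Myo1e*, a motor protein of the cell cortex, was at 78.3, 164, 154 and 95.5 CPM and *Iqgap2*, a scaffold that binds Rac, at 95.8 ± 9.56 CPM, 16.0 and 10.6 times the other neurons. *Myo1e* and *Dpyd*, an enzyme of pyrimidine breakdown with a ratio of 5.97, were also seen in 28.6% and 58.9% of oligodendrocytes. The remaining named members were the receptor phosphatase gene *Ptprm* (1898 ± 371 CPM against 270 ± 10.9 CPM), the transcription factor gene *Bcl11b*, the GABA-A receptor gene *Gabrg1*, and *Lhfp*, *Ccbe1* and *Nhsl1*, with ratios from 6.21 to 9.11. *Lhfp* varied most between libraries, at 193, 190, 127 and 34.7 CPM, the lowest in AgRP-Gq;POMC-Gi replicate 2, and it ranked only 7th among the clusters, with cluster 104 first at 645 CPM. The antisense or intergenic RNAs *Gm43948*, *Gm10848*, *Pard3bos1*, *Gm44593* and *Gm11844* complete the 20, and 4 of these 5 lie opposite a gene on the other strand, so their UMIs may belong to that gene.

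Almost missing were 10 genes common in other neurons. *Tafa1*, a gene of a secreted factor, had 0, 0, 2 and 1 UMIs in the cluster and a mean of 521 ± 15.1 CPM (SD, n = 4) in the other neurons. *Cacna2d1*, the auxiliary calcium channel subunit that binds gabapentin, had 1, 2, 1 and 0 UMIs against 509 ± 26.9 CPM. The transcription factor genes *Nfia* (0, 2, 0 and 1 UMIs against 116 ± 16.1 CPM) and *Ebf1* (6, 8, 1 and 1 UMIs against 532 ± 117 CPM) were near absent in every library, and *Ebf3* and *Dach1* had means of 4.33 and 7.59 CPM against 97.4 and 330 CPM. *Ephb1*, *Ndst4*, *Trim43c* and *Tmem163* were the others, with means of 2.05 to 5.84 CPM against 62.5 to 165 CPM. *Nfia* and *Ephb1* were lower here than in any other neuronal cluster.

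**Figure D2:**
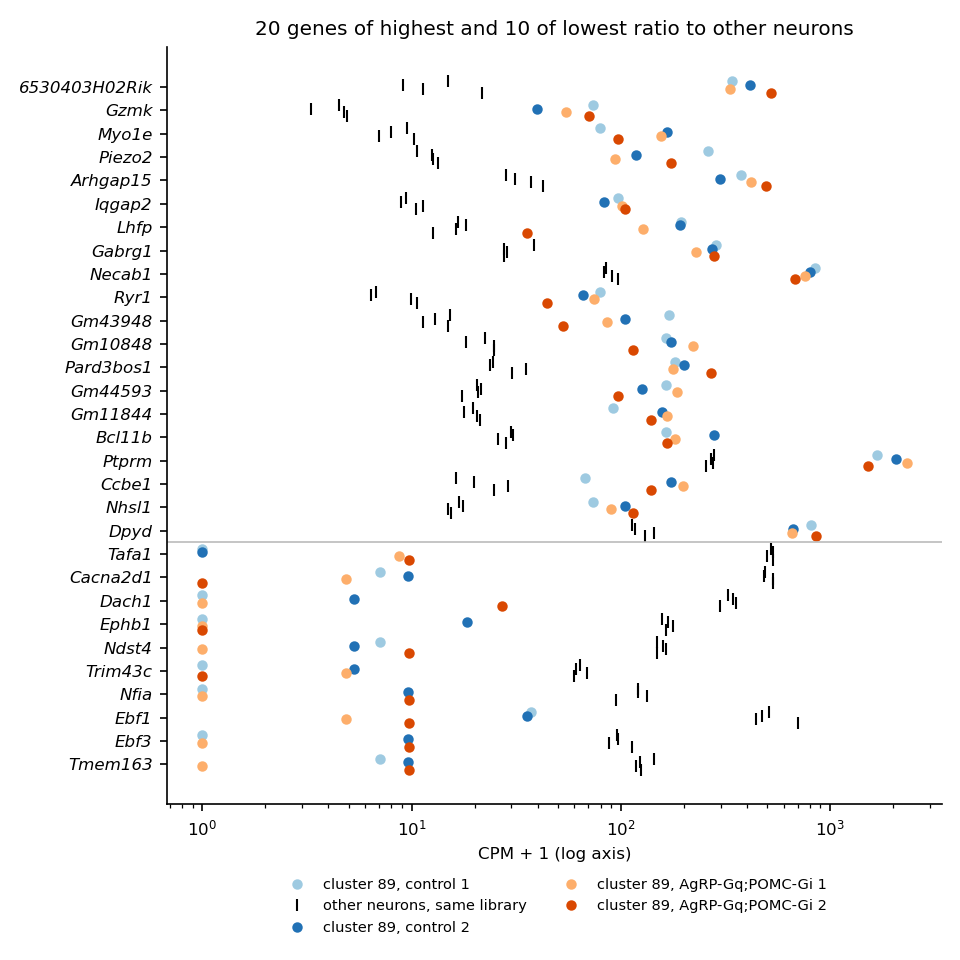
Level of the 20 genes of highest (above the line) and 10 of lowest ratio to other neurons, as CPM + 1 on a log axis, in cluster 89 (points, 1 per library) and in the other neurons of the same library (ticks). Points and ticks of a gene do not overlap for any of the 30 genes, which is a condition of the choice.

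The cluster carried the markers of GABAergic neurons and almost none of glutamatergic ones. *Gad1* was at 145, 177, 177 and 130 CPM against 45.2 to 52.6 CPM in the other neurons, and *Gad2* at 235, 208, 362 and 165 CPM against 91.97 to 95.7 CPM, in each library above all libraries of the other neurons. At least 1 of them was detected in 96 of the 109 nuclei (88.1%, 95% interval 80.5 to 93.5%), against 45.7% of the other neurons and 4.78% of oligodendrocytes. *Slc6a5*, the glycine transporter of glycinergic neurons, was at 30.1, 77.9, 73.2 and 86.8 CPM against 78.6 to 91.2 CPM, and it was seen in 33.0% of the nuclei of the cluster and 32.7% of the other neurons. Of the 36 nuclei with an *Slc6a5* UMI, 32 also had one of *Gad1* or *Gad2*. *Slc32a1*, which loads both transmitters into vesicles, was at 36.4 ± 11.6 CPM against 27.1 ± 1.09 CPM, and its range overlapped that of the other neurons. *Slc17a6*, the vesicular glutamate transporter, had 3 UMIs in 3 nuclei (2.75%, 0.571 to 7.83%), while 36.0% of the other neurons and 3.49% of oligodendrocytes had one. *Slc17a7* and *Slc17a8* had no UMI in the cluster, and 0 of 109 nuclei allows a share of nuclei with a UMI of up to 2.75%. Of the 22 transmitter genes listed, 10 had no UMI, where 16715 of all 32285 genes counted had one. The 8 that passed the 5% minimum held 3 above and 1 below the other neurons in all 4 libraries. Their median log2 ratio was 0.13 against 0.08 over all genes tested. Of all genes tested, 15.1% were above and 12.6% below.

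Among 83 transcription factors of hindbrain lineages, which set the identity of neurons by their position and time of birth, 28 passed the 5% minimum, 12 of them above and 10 below the other neurons in all 4 libraries (median log2 ratio 0.52). Over all genes tested 15.1% were above and 12.6% below, with a median log2 ratio of 0.08. *Bcl11a* was at 494, 459, 385 and 408 CPM against 102 ± 3.99 CPM (SD, n = 4), and *Bcl11b* at 163, 277, 181 and 165 CPM against 27.6 ± 2.04 CPM. Both zinc finger genes ranked first among the 134 clusters, with cluster 92 not far below at 384 and 175 CPM. *Pax2*, a gene of inhibitory neurons of the dorsal hindbrain and spinal cord, was at 114, 247, 170 and 217 CPM against 59.5 ± 4.42 CPM and was seen in 56.0% of the nuclei. *Zic1*, at 61.8 ± 2.49 CPM, was 2.74 times the other neurons. *Tshz2* (37.4 ± 22.1 against 493 ± 35.8 CPM), *Zfhx3* (61.2 ± 12.0 against 488 ± 21.2 CPM) and *Meis2* (50.9 ± 13.1 against 355 ± 35.2 CPM) were below the other neurons in all libraries. Hox genes record the position along the head to tail axis. Of 39 Hox genes, 27 had no UMI, where 16715 of all 32285 genes counted had one. The 7 that passed the minimum held 2 above and 1 below the other neurons in all 4 libraries. Their median log2 ratio was -0.13, against 0.08 over all genes tested. The 2 above were *Hoxd3* (52.4 ± 17.1 against 26.2 ± 3.18 CPM) and *Hoxb3* (60.9 ± 12.7 against 49.4 ± 4.91 CPM).

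Receptors for inhibitory transmitters stood out by 4 subunit genes that lie side by side on chromosome 5. *Gabrg1* (70751047 to 70842617) was at 283, 273, 227 and 278 CPM against 26.7 to 37.4 CPM, 8.96 times the other neurons and second among the 134 clusters after cluster 72. *Gabra2* (70957597 to 71095849) was at 428 ± 71.9 against 146 ± 6.44 CPM, *Gabra4* (71569749 to 71658308) at 86.0 ± 13.5 against 25.3 ± 5.24 CPM, and *Gabrb1* (71658113 to 72149037) at 1304 ± 143 against 623 ± 20.2 CPM (SD, n = 4 each). *Gabra4* and *Gabrb1* overlap by 196 bases on opposite strands. Of the 20 GABA-A and glycine receptor subunits, 15 passed the minimum, 8 of them above and 2 below the other neurons in all libraries, and the 2 below were *Gabra3* (71.8 ± 21.7 against 151 ± 12.1 CPM) and the glycine receptor gene *Glra1* (158 ± 31.8 against 230 ± 2.74 CPM). Of 24 glutamate receptor genes, 22 passed, 7 above and 5 below, with a median log2 ratio of 0.04 against 0.08 over all genes tested. Beside both lists, 15.1% of all genes tested were above and 12.6% below. *Gria1*, an AMPA receptor subunit, was at 1163, 1229, 1225 and 799 CPM against 389 ± 19.47 CPM, whereas the kainate receptor gene *Grik4* was at 30.1, 25.96, 30.8 and 26.05 CPM against 154 ± 4.99 CPM, lower than in all but 1 of the 134 clusters.

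Receptors for modulators held members above and members below the other neurons. *Htr2a*, an excitatory serotonin receptor, was at 84.4, 90.9, 57.8 and 52.1 CPM against 11.1 to 16.4 CPM and ranked first among the 134 clusters, just above cluster 72 at 71.3 against 69.2 CPM. *Htr4*, *Htr7*, *Adra1a*, *Chrm2* and *Chrm3* were below the other neurons in all libraries. No UMI was found for 13 of the 35 monoamine and acetylcholine receptor genes, where 16715 of all 32285 genes counted had one. Of these 35, 13 passed the minimum, 2 above and 5 below, with a median log2 ratio of -0.25. Of 46 peptide and hormone receptor genes, 16 passed the minimum, 9 above and 1 below, with a median log2 ratio of 0.93. Over all genes tested 15.1% were above and 12.6% below, with a median log2 ratio of 0.08. The mu opioid receptor gene *Oprm1* was at 295, 203, 212 and 226 CPM against 105 ± 4.12 CPM and was seen in 64.2% of the nuclei. The steroid receptor genes *Esr1* (88.1 ± 42.2 against 30.2 ± 3.01 CPM) and *Nr3c1* (79.9 ± 26.4 against 41.0 ± 2.85 CPM) were above, and *Nr3c2*, the mineralocorticoid receptor gene, was below (179 ± 24.3 against 327 ± 14.1 CPM).

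*Agrp* was at 108, 108, 92.5 and 122 CPM in cluster 89 and at 83.5 to 91.5 CPM in the other neurons, and its level exceeded 50% of that of cluster 89 in 124 clusters, so it did not mark this cluster. *Pomc* had no UMI. Of 27 neuropeptide genes, 13 had no UMI, where 16715 of all 32285 genes counted had one. The 6 that passed the minimum held 2 above and 1 below the other neurons in all 4 libraries, with a median log2 ratio of -0.13. Over all genes tested 15.1% were above and 12.6% below, with a median log2 ratio of 0.08. *Agrp* alone reached 25% of the nuclei. *Pnoc*, seen in 26 nuclei, was at 48.2, 47.6, 46.2 and 8.68 CPM against 4.44 to 5.77 CPM.

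Of 90 potassium channel genes, which set how readily a neuron fires, 42 passed the minimum, 9 above and 11 below the other neurons in all libraries, where 15.1% of all genes tested were above and 12.6% below. The sodium-activated channel gene *Kcnt2* was at 286 ± 110 against 129 ± 13.6 CPM, and *Kcnd2*, which carries the A-type current, at 585, 1008, 778 and 833 CPM against 2057 ± 61.1 CPM. Of 30 sodium, calcium and HCN channel genes, 23 passed, 7 above and 7 below. *Cacna1e*, the R-type calcium channel gene, was at 814, 801, 782 and 833 CPM against 329 ± 25.0 CPM, and the sodium channel gene *Scn9a* at 175 ± 16.5 against 523 ± 48.2 CPM. *Necab1* was the highest by ratio of the 22 EF-hand genes, of which 19 passed, 5 above and 5 below. *Arhgap15* was likewise the highest of the 29 listed GTPase-activating protein genes, of which 22 passed, 5 above and 3 below, beside the same shares of 15.1% and 12.6% over all genes. *Arhgap18* and *Srgap1* were the lowest at 35.5 ± 24.0 and 30.6 ± 16.8 CPM against 140 ± 9.72 and 120 ± 7.97 CPM.

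*Syt1*, the calcium sensor of fast transmitter release, was lower in cluster 89 than in any of the other 133 neuronal clusters. It was at 60.3, 203, 193 and 165 CPM against 1308 to 1389 CPM in the other neurons, and the next lowest cluster, number 178, was at 266 CPM. A *Syt1* UMI was seen in 37.6% of the nuclei against 90.6% of the other neurons, and in 22.02% against 76.3% after thinning. Of the 6 neuronal markers listed, 4 were below the other neurons in all 4 libraries and none above (median log2 ratio -0.53). Besides *Syt1* these were *Elavl2* (130 ± 31.8 against 351 ± 26.1 CPM), *Elavl4* (225 ± 48.4 against 313 ± 16.8 CPM) and *Nefl* (55.4 ± 22.8 against 82.7 ± 19.0 CPM), with smaller differences than *Syt1*. *Snap25*, its partner in release, was at 812 ± 111 against 715 ± 12.6 CPM and *Rbfox3* at 263 ± 43.0 against 256 ± 12.0 CPM, with ranges that overlapped those of the other neurons. The synaptotagmin family was added after *Syt1* had been seen. Of its 17 genes, 14 passed the minimum, 6 above and 4 below, and *Syt10* (81.1 ± 21.5 against 16.4 ± 2.42 CPM), *Syt5* (71.1 ± 12.6 against 18.2 ± 3.14 CPM) and *Syt16* (310 ± 25.3 against 143 ± 3.21 CPM) were above in each library. Of all genes tested, 15.1% were above and 12.6% below. Markers of other cell types were also counted. None of the astrocyte, oligodendrocyte precursor, endothelial and mural, or fibroblast markers reached 5% of the nuclei, with *Gfap*, *Olig2*, *Cspg4* and *Lum* at 0. The 5 endothelial and mural markers summed to 90.4, 8.65, 15.4 and 0 CPM against 8.29 to 15.3 CPM, so control replicate 1 stood apart. *Flt1* gave 8 UMIs there, and its 9 UMIs in all came from 2 nuclei. The summed level of 6 oligodendrocyte markers was 368, 242, 227 and 382 CPM against 308, 250, 146 and 184 CPM in the other neurons of the same library, so it was higher in 3 of 4 libraries, most in both of AgRP-Gq;POMC-Gi (median log2 ratio of single markers 0.65). That of 5 markers of microglia and macrophages, *Csf1r* being at 0, was 90.4 to 166 against 147 to 164 CPM.

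**Figure D3:**
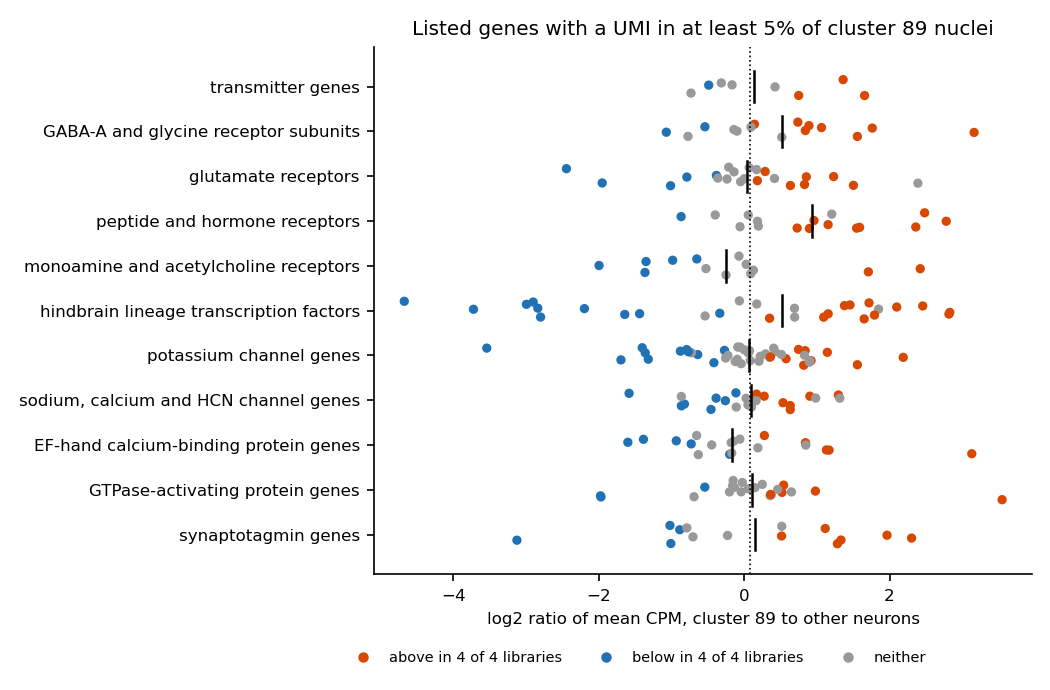
Log2 ratio of the mean CPM of cluster 89 to that of other neurons for listed genes detected in 5% or more of the nuclei (points, 1 per gene), by list, with the list's median (bar) and the median of all 10912 genes tested (dotted line, 0.08). Orange and blue points were above or below the other neurons in 4 of 4 libraries, and the lowest synaptotagmin gene is Syt1.

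Of the other neuronal clusters, those with expression most like cluster 89 were 92 (107 nuclei, Pearson r = 0.906 over 10912 genes), 58 (Adarb2/Lama1, 147 nuclei, 0.903) and 41 (Ryr1/Tfap2b, 168 nuclei, 0.903). All 3 held *Gad1* and *Gad2* at levels near those of cluster 89, at 126 to 140 and 253 to 312 CPM. *Slc6a5* was at 180, 114 and 125 CPM in clusters 92, 58 and 41 against 67.0 ± 25.2 CPM. *Necab1* was at 364, 270 and 251 CPM, below the 677 CPM of the lowest library of cluster 89. *Ptprm*, *Myo1e*, *Bcl11b* and *Arhgap15* were shared most closely with cluster 92, at 1932, 104, 175 and 298 CPM there. *6530403H02Rik* at 17.3, 3.16 and 3.00 CPM, *Piezo2* at 14.1, 1.74 and 5.16 CPM, and *Gzmk* at 4.31, 0.713 and 17.3 CPM set cluster 89 apart from all 3. *Syt1* was at 829, 1590 and 1402 CPM in them. No test was made, since these genes helped to form the clusters.

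Nuclei within cluster 89 were also described by whether they held a *Piezo2* UMI. This divide was chosen after the data had been seen, so what follows is a description, and absence of a UMI does not show absence of the RNA. *Npsr1*, *Trhr*, *Ptprk*, *Cacna2d3*, *Grm7* and *Sorcs1* were likewise chosen after their values were seen. Their common direction over the libraries is thus largely fixed by that choice. A *Piezo2* UMI was found in 10 of 20, 14 of 31, 7 of 40 and 8 of 18 nuclei of the 4 libraries. Nuclei with it had a median of 6885 UMIs and those without 5714.5 UMIs. *Npsr1*, the neuropeptide S receptor gene, had a UMI in 15 of the 39 nuclei with *Piezo2* and in 1 of the 70 without. *Trhr*, the receptor gene of thyrotropin-releasing hormone, had a UMI in 21 of 39 and 3 of 70 nuclei. *Ptprk*, a receptor phosphatase gene, was at 598, 360, 817 and 231 CPM in the nuclei with *Piezo2* and at 80.4, 219, 105 and 133 CPM in those without. All 3 genes were higher with *Piezo2* in 4 of 4 libraries.

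In the opposite direction, the calcium channel subunit gene *Cacna2d3* was at 77.1, 223, 79.7 and 105 CPM with *Piezo2* and 852, 1041, 970 and 680 CPM without it, ranges that did not overlap. *Grm7*, a presynaptic glutamate receptor gene, was at 324 ± 281 and 1248 ± 457 CPM, *Sorcs1*, a sorting receptor gene, at 21.1 ± 31.9 and 313 ± 116 CPM, and *Brinp3* at 111 ± 97.8 and 584 ± 337 CPM (SD, n = 4 libraries). Each was lower with *Piezo2* in 4 of 4 libraries, as was *Syt1* at 59.3 ± 68.5 and 221 ± 41.3 CPM, so *Syt1* was also far below the other neurons in the nuclei without *Piezo2*. Over the 109 nuclei the Pearson correlation of *Piezo2* was 0.473 with *Npsr1*, 0.407 with *Trhr*, -0.515 with *Grm7* and -0.350 with *Brinp3*, values that share library and depth. *Necab1* was much the same on either side, at 787 ± 122 and 769 ± 198 CPM, and *Bcl11b* and *Gabrg1* showed no common direction over the 4 libraries. *Gad1* was higher with *Piezo2* in 4 of 4 libraries (209 ± 89.02 against 136 ± 16.7 CPM). Its highest value, 339 CPM in AgRP-Gq;POMC-Gi replicate 1, came from 7 nuclei. *Slc6a5* was lower in 4 of 4 (43.7 ± 14.3 against 82.7 ± 36.3 CPM). It was seen in only 10 of the 39 nuclei with *Piezo2*, and control replicate 1 was at 28.9 against 32.2 CPM. *Gad2* was higher in 2 of 4. How many of all genes keep the same direction over the 4 libraries was not counted. *Arhgap15* was at 525 ± 143 CPM with and 309 ± 82.5 CPM without *Piezo2*, above in 4 of 4 libraries.

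**Figure D4:**
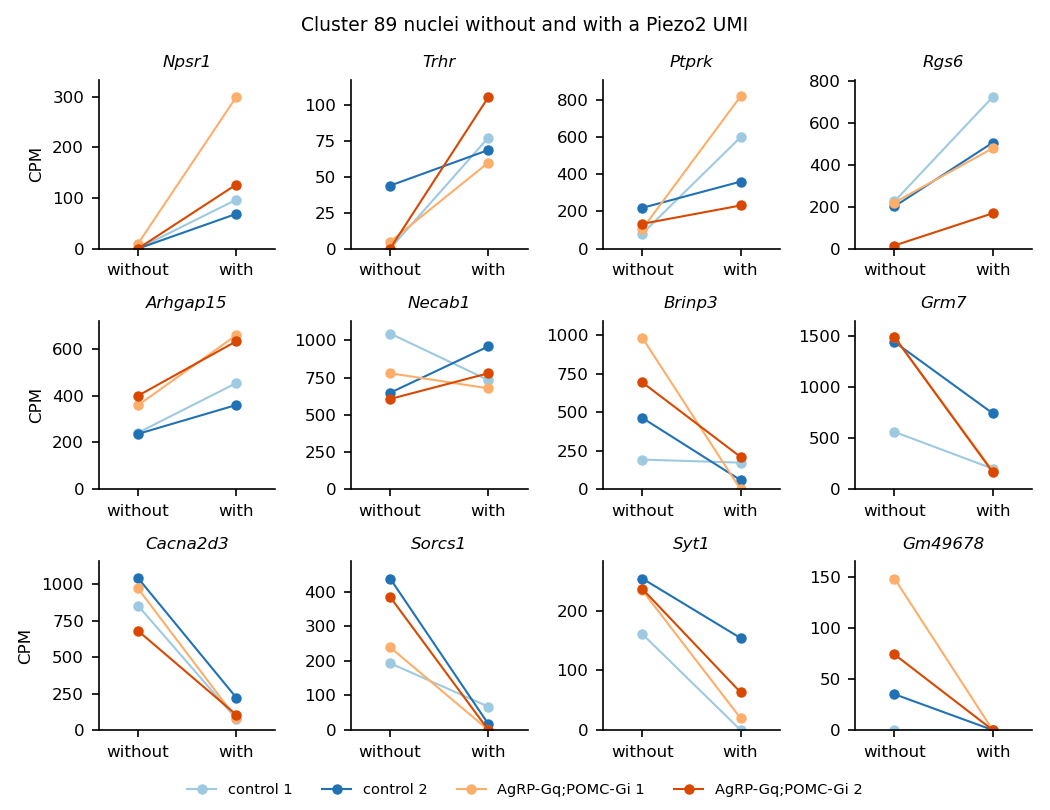
Level in CPM of 12 genes in cluster 89 nuclei without and with a Piezo2 UMI, each line being 1 of the 4 libraries. Npsr1, Trhr, Ptprk, Rgs6 and Arhgap15 are higher with Piezo2 in every library, Necab1 shows no common direction, and Brinp3, Grm7, Cacna2d3, Sorcs1 and Syt1 are lower in every library.

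The comparison of AgRP-Gq;POMC-Gi with control mice asks whether acting on both hypothalamic neuron types at once alters gene expression in these hindbrain neurons. It was made on UMIs summed per library over the nuclei of the cluster with edgeR's quasi-likelihood test (n = 2 libraries per group, 10912 genes, Benjamini-Hochberg adjustment). No gene passed an adjusted p of 0.05 (0 of 10912, 0%), and 444 genes had an unadjusted p under 0.05 (4.07%), 195 with a higher (1.79%) and 249 with a lower mean in AgRP-Gq;POMC-Gi (2.28%). DESeq2 likewise called 0 and put 20 genes under 0.05 before adjustment, and edgeR with its own gene filter (filterByExpr) called 0. Other edgeR fits with all 4 libraries called 2 genes without TMM factors, 3 without a filter and 1 at a 10% detection minimum. *Brinp3* was among those called in each of these fits. The count depended on the library. It was 8 without AgRP-Gq;POMC-Gi replicate 1, *Xist* and *Tsix* among them, and 11 without AgRP-Gq;POMC-Gi replicate 2, led by *Ttr* and *Brinp3*. Each of these fits leaves 1 library in the AgRP-Gq;POMC-Gi arm, so that library is assumed to vary like the controls, whose spread alone enters the test. The 18 to 40 nuclei per library limit this test.

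*Brinp3*, a gene of a secreted neuronal protein, had the smallest p. Its UMIs numbered 30, 60, 206 and 57, counts that overlap between groups. Its CPM, at 181, 260, 794 and 495, do not overlap. With 2 libraries per group, an exact permutation of such a separation cannot give a p below 0.333. The log2 difference was 1.59 ± 0.29 (SE) at an adjusted p of 0.0657 in edgeR, and 1.09 to 1.94 with each library left out. Over the alternatives with all 4 libraries, the adjusted p ran from 0.000199 in edgeR to 0.9997 in DESeq2. In the other neurons *Brinp3* was at 824, 903, 1076 and 887 CPM. Because *Brinp3* was low in nuclei with *Piezo2* and their share was 17.5% in AgRP-Gq;POMC-Gi replicate 1 against 44.4 to 50% in the other libraries, its level without those nuclei is given too. In nuclei lacking a *Piezo2* UMI it was at 193, 464, 984 and 695 CPM, values that do not overlap between groups, and the part of the changed share of nuclei in the difference was not tested.

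The lincRNA *Gm49678* (0, 17.3, 119 and 43.4 CPM), *Cpa6*, a carboxypeptidase gene (0, 21.6, 100.2 and 52.1 CPM), and *Il1rapl2*, a gene of a synaptic receptor-like protein (12.1, 73.6, 88.6 and 278 CPM), were likewise lower in both control libraries than in either AgRP-Gq;POMC-Gi library and scarce in nuclei with *Piezo2*, in 0, 1 and 2 of 39. In the nuclei lacking a *Piezo2* UMI, *Gm49678* was at 0, 35.0, 148 and 73.9 CPM and *Cpa6* at 0, 26.3, 124 and 88.7 CPM, while *Il1rapl2* was at 16.1, 123, 110 and 473 CPM, with control replicate 2 above AgRP-Gq;POMC-Gi replicate 1. The part of this composition in their differences was not tested. *Wdr43*, *Ankrd44*, *Dvl1*, *Man1a2* and *Gm32647* were 5 more of the 10 genes with the smallest p and a higher mean in AgRP-Gq;POMC-Gi, with log2 differences of 0.93 to 2.80 and adjusted p of 0.830 to 0.991 in edgeR. With each library left out these 5 kept their sign, but *Wdr43* ran from 2.05 to 6.72 and *Gm32647* from 0.52 to 1.58.

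The 10 with a lower mean were *Ntng1*, *Eif5a*, *Rgs6*, *Hnmt*, *Cox6a1*, *Clmp*, *Snx7*, *Srsf5*, *Rpl26* and *Nell1*, all at an adjusted p of 0.991 in edgeR. *Ntng1*, an axon guidance gene, was at 139, 73.6, 15.4 and 52.1 CPM, and *Rgs6*, a regulator of G protein signals, at 536, 355, 270 and 78.1 CPM. *Rgs6* was one of the genes higher in nuclei with *Piezo2*, at 469 ± 228 against 165 ± 101 CPM (SD, n = 4 libraries). In the nuclei without it *Rgs6* was at 225, 201, 220 and 14.8 CPM, so AgRP-Gq;POMC-Gi replicate 1 lay within the range of the controls there and replicate 2 alone was low. It was one of the 8 genes called without AgRP-Gq;POMC-Gi replicate 1.

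Immediate early genes (IEGs), which rise within minutes of strong activity in a neuron, were the study's readout, and 7 of its 10 IEGs reached 5% of the nuclei. Of these 7, 2 had an unadjusted p under 0.05, both with a higher mean in AgRP-Gq;POMC-Gi, against 1.79% of all genes tested in that direction, and none passed the adjusted threshold in edgeR. *1700016P03Rik*, the host transcript of the activity-induced miR-212 and miR-132, had 6, 10, 30 and 8 UMIs, counts that overlap between groups. Its CPM, at 36.2, 43.3, 116 and 69.5, do not overlap. With 2 libraries per group, an exact permutation of this separation cannot give a p below 0.333. The log2 difference was 1.33 ± 0.46 (SE), with an unadjusted p of 0.00672 and an adjusted p of 0.991 in edgeR. It was at 22.1, 18.4, 24.7 and 32.6 CPM in the other neurons. *Nr4a3* had 0, 2, 13 and 0 UMIs, with an unadjusted p of 0.0199 and an adjusted p of 0.991 in edgeR, so all its UMIs in the group came from replicate 1.

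A single nucleus held many of these UMIs. That nucleus, of AgRP-Gq;POMC-Gi replicate 1 and with 9179 UMIs in all, held 13 of the 54 *1700016P03Rik* UMIs, 6 of the 15 *Nr4a3* UMIs, 4 of the 14 *Nr4a1* UMIs and 4 of the 14 *Junb* UMIs. Without it, a choice made after the data were seen, *1700016P03Rik* in that library was at 67.9 CPM, the unadjusted p was 0.103 in edgeR and 0 of 7 IEGs were under 0.05. The log2 differences were then 0.81 for *1700016P03Rik* and 1.81 for *Nr4a3*. With 1 library left in an arm, fewer libraries carry the test. Leaving out control replicate 1 or 2 gave 0 IEGs under 0.05 with a log2 difference of *1700016P03Rik* about as large as with all libraries, at 1.22 and 1.51. Leaving out AgRP-Gq;POMC-Gi replicate 1 also gave 0, with that difference at 0.73. The share of nuclei with a *1700016P03Rik* UMI was 2 of 20, 5 of 31, 11 of 40 and 5 of 18. *Nr4a1* had 2, 3, 9 and 0 UMIs. *Homer1* was at 66.3, 99.5, 96.3 and 69.5 CPM, *Jun* at 12.1, 12.98, 11.6 and 8.68 CPM, *Junb* at 36.2, 4.33, 23.1 and 8.68 CPM and *Btg1* at 6.03, 21.6, 19.3 and 34.7 CPM, with unadjusted p from 0.336 to 0.934 in edgeR for these 5. The CPM of *Jun* did not overlap between the groups either, with the lower values in AgRP-Gq;POMC-Gi. *Fos*, under the minimum, had 1, 1, 7 and 0 UMIs in 5 nuclei. Of 24 other activity genes, 7 were tested and none had an unadjusted p under 0.05.

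**Figure D5:**
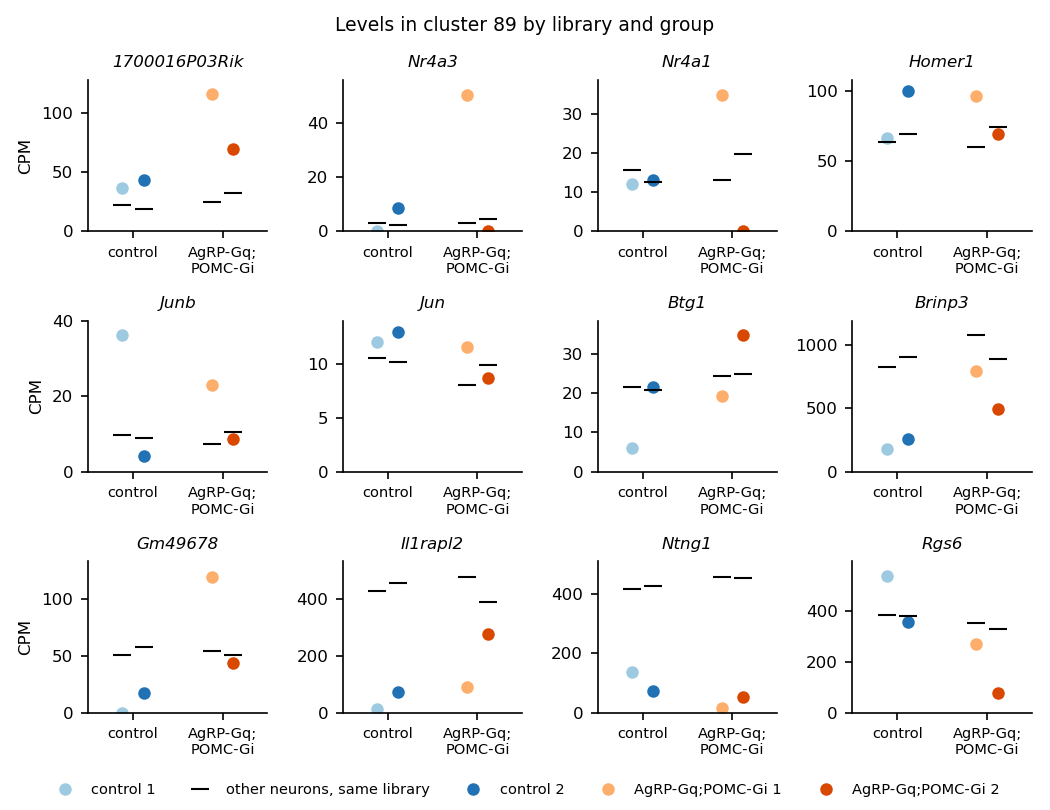
Level in CPM of the 7 tested IEGs and of 5 of the genes with the smallest p in cluster 89, by group (points, 1 per library) and in the other neurons of the same library (ticks). Brinp3, Gm49678, Il1rapl2, Ntng1, Rgs6, 1700016P03Rik and Jun do not overlap between the groups. An exact permutation of such a separation cannot give a p below 0.333. Nr4a3 and Nr4a1 reach 50.1 and 34.7 CPM in AgRP-Gq;POMC-Gi replicate 1 and are at 0 in replicate 2.

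Among the peptide and hormone receptor genes, *Npy5r* and *Esr1* are given for their unadjusted p in edgeR. *Npy5r*, a receptor gene of neuropeptide Y, which AgRP neurons release, was at 24.1, 17.3, 57.8 and 34.7 CPM (log2 difference 1.32 ± 0.62, SE, unadjusted p of 0.0419 and adjusted p of 0.991 in edgeR). *Esr1* was at 133, 108, 77.1 and 34.7 CPM (-0.88 ± 0.41, unadjusted p of 0.0380 and adjusted p of 0.991 in edgeR). With each library left out, the log2 difference ran from 0.71 to 1.60 for *Npy5r* and from -1.80 to -0.51 for *Esr1*. Of the 16 peptide and hormone receptor genes tested, these were the 2 under an unadjusted p of 0.05, 1 in each direction, against 4.07% of all genes tested. *Npy1r*, another receptor gene of neuropeptide Y, was at 6.03, 34.6, 19.3 and 8.68 CPM. Its log2 difference was -0.44 ± 0.85 (SE), with an unadjusted p of 0.608 in edgeR. Of 16 genes induced by glucocorticoids, 8 were tested, and *Zbtb16* (169, 134, 53.9 and 95.5 CPM) and *Mt1* (72.3, 77.9, 15.4 and 43.4 CPM) had a lower mean in AgRP-Gq;POMC-Gi at an unadjusted p of 0.00653 and 0.00784 and an adjusted p of 0.991 in edgeR. These were the 2 of 8 under 0.05, against 2.28% of all genes tested with a lower mean. In the other neurons *Zbtb16* was at 57.9, 44.3, 34.8 and 33.3 CPM and *Mt1* at 36.5, 38.2, 24.0 and 27.4 CPM, in the same order between groups.

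Whether the group difference in cluster 89 differed from that in the other neurons was tested for the same 10912 genes with a library block in edgeR. After adjustment 0 genes passed 0.05 (0%), while before it 446 did (4.09%), and DESeq2 gave 0 and 107. *Brinp3* and *Gm49678* came nearest, with log2 differences of 1.33 and 3.22 between the group effects and an adjusted p of 0.0889 each. Leaving out AgRP-Gq;POMC-Gi replicate 1 gave 5 genes and leaving out replicate 2 gave 4, *Brinp3* among the latter. For *1700016P03Rik* the difference was 0.83 ± 0.49 (SE), with an adjusted p of 1.000, so a response of its own in cluster 89 was not shown at this depth.

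Cluster 89 made up 0.810% (95% Clopper-Pearson interval 0.495 to 1.25%) and 1.13% (0.771 to 1.60%) of the neurons in control replicates 1 and 2, and 1.08% (0.774 to 1.47%) and 0.495% (0.294 to 0.781%) in those of AgRP-Gq;POMC-Gi. Within the latter group the libraries lay further apart than the group means, which were 0.971% and 0.789%. The difference of -0.183 percentage points had an exact two-sided permutation p of 0.667, where 4 libraries allow none below 0.333, and it turned to 0.111 without AgRP-Gq;POMC-Gi replicate 2.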

How the data were processed

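Per the labels and the study's methods, the authors mapped reads to GRCm38 (mm10) with Cell Ranger 7.0.0 and deposited UMI counts per gene and barcode, which were processed with Seurat 4.3.0. They kept nuclei with at least 800 UMIs, 500 genes and at most 10% mitochondrial RNA (a percent column of the deposited table), removed doublets, and clustered an scVI embedding by the Louvain method. Doublets were not called again. Cluster and cell type come from their table. UMI totals of the matrices equal it in 44303 of 44303 barcodes. The matrix joining the libraries and the deposited IEG score were not used.

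UMIs were summed per library over the nuclei and divided by their total to give CPM. Groups were compared with edgeR 4.0.16 (TMM, quasi-likelihood test) in R 4.3.3 over genes detected in 5% or more of the 109 nuclei, with DESeq2 1.42.0 among the alternatives, and tried on simulated counts. Members and gene lists were chosen with earlier results of these data known. Genes were named if in the 20 highest or 10 lowest ratios, in a list and in 25% of nuclei or ranked in the highest 3, or among the 10 smallest p in each direction, with all tested IEGs, the 5 most like profiles and the 3 most like clusters. List members under 25% that are named, *Npsr1*, *Trhr*, *Ptprk*, *Cacna2d3*, *Grm7*, *Sorcs1* and the synaptotagmins were chosen after their values were seen. Shares were also thinned to 2000 UMIs, which left out 166 other neurons and 5416 oligodendrocytes. Positions are from GENCODE M21. 78 genes share a symbol and were told apart by identifier. A few genes that these rules would name are not reported here.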

Additional observations from a re-analysis of the deposited data

Results flagged for a closer look

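Over the 4 libraries, 33 values were screened for a library that stands apart, by the gap of the highest or lowest to its neighbour relative to the whole range, and 4 exceeded Dixon's critical value, where chance flags about 1 in 20. The share of nuclei with a *Piezo2* UMI was 17.5% in AgRP-Gq;POMC-Gi replicate 1 against 44.4, 45.2 and 50% in the other libraries. *Bcl11b* was at 277 CPM in control replicate 2 against 163 to 181 CPM. *Dach1* was at 26.05 CPM in AgRP-Gq;POMC-Gi replicate 2 and *Ephb1* at 17.3 CPM in control replicate 2, against 0 to 4.33 CPM and 0 CPM in the other libraries. Libraries tied at 0 largely set the gap for *Dach1* and *Ephb1*, so the rate of 1 in 20 does not hold for them.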

How the results depend on the processing

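The 20 leading genes were above the other neurons in 20 of 20 cases after thinning, with log-normalized means and against the median cluster, a direction that their choice largely fixes. The count of genes called between groups, 0, was 2 without TMM factors, 3 without a filter, 1 at a 10% detection minimum and 0 to 11 with each library left out. The replicate numbers were not taken to pair the libraries, because the labels give them no shared origin and the deviations of the replicate 1 libraries had a correlation of 0.0208 over 2989 genes, though *Ttr* was high in both libraries numbered 2. The replicate block gave 3 genes, *Brinp3*, *Il1rapl2* and *Gm49678*, and 1 IEG at an unadjusted p under 0.05. That count of IEGs, 2, was 0 with DESeq2 (log2 differences of 1.28 for *1700016P03Rik* and 2.59 for *Nr4a3*, against 1.33 and 2.61), 1 with filterByExpr and 1 at the 10% minimum, where *Nr4a3* was not tested, 0 without the nucleus richest in *1700016P03Rik* (added after seeing the data) and 0 to 2 with each library left out. Genes whose group effect differed from other neurons, 0, numbered 1 (*Brinp3*) against the 3 most like clusters and 0 to 5 with each library left out. The difference in the share of neurons, -0.183 percentage points, was 0.0390 with all kept nuclei as the denominator and -0.476 to 0.111 with each library left out. Log2 differences turned sign for *Homer1* (-0.33 to 0.45 with each library left out), *Nr4a3* (-2.98 to 5.62) and *Nr4a1* (-4.20 to 1.53), in each case lowest without AgRP-Gq;POMC-Gi replicate 1, and for *Junb* (-1.03 to 1.97, and -0.18 with DESeq2, -0.28 with the replicate block and -1.03 without that nucleus). Their cause was not tested. Of the other single values, 269 kept direction and side of the threshold, 13 passed it and 4 ratios of label genes moved, from 7.02 to 15.8 for *Necab1* and from 9.77 to 38.4 for *Arhgap15*.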
